A study of Mus musculus with 6 samples.

Results

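The genes described here are 40 genes of the cell division cycle, taken from the 24421 genes of the deposited expression table by their symbols and grouped by the phase in which their products act. Of these, 26 act at the G1/S transition and in DNA replication and 14 act in G2 and mitosis. No expression value of the 40 genes was used in the grouping, but the genes were chosen with earlier results of these data known. RNA was sequenced from an immortalized line of wild-type mouse proximal tubular epithelial cells (PTECs), the cells that line the first segment of the renal tubule and take up filtered albumin with the fatty acids it carries. PTECs were treated for 6 hours with palmitic acid (PA) bound to bovine serum albumin (BSA), or with BSA alone, which is the carrier of PA and was present in both groups. There were 3 libraries from PA-treated PTECs and 3 from BSA-treated PTECs, and the question was which transcripts change during overload with a saturated fatty acid. All libraries came from cultured, immortalized cells, so the division state of tubular cells in a kidney was not measured.

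Before a cell copies its DNA, the MCM proteins are loaded onto replication origins as a ring with the help of CDC6 and CDT1, and CDC45 and the GINS proteins turn the ring into an active helicase. Cyclin D with CDK4 or CDK6, and then cyclin E with CDK2, release the E2F transcription factors from RB, and E2F switches on the genes of replication and nucleotide supply. Cyclins A and B with CDK1 later drive mitosis, and many G2/M genes are held down in quiescence and switched on late in the cycle through a promoter element called the CHR, which is bound by complexes that contain LIN54.

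All 40 genes were expressed, with mean values from 5.66 to 325 RPKM (reads scaled by the length of the gene and by the depth of the library), and all 40 passed the filter of a mean of at least 0.5 RPKM. Of the 40 genes, 17 fell in PA-treated PTECs, none rose and 23 did not pass the test (limma on log2(RPKM + 0.1), Benjamini-Hochberg adjusted p under 0.05 over 11671 genes). Among all genes tested, 9.52% fell and 11.2% rose. With a mean of at least 10 RPKM, which 38 of the 40 genes have, 12.0% of genes fell and 14.4% rose. At an unadjusted p under 0.05, 22 of the 40 genes differed, 21 of them lower and 1 higher, against 19.6% of all genes lower and 16.2% higher. The changes were small. The 17 log2 fold changes lay between -0.42 and -0.12, which is 1.34-fold to 1.09-fold lower, and only Ccne1 passed an adjusted p under 0.05 together with an absolute log2 fold change over 0.4, which 2.06% of all genes did in the downward direction. The median log2 fold change was -0.11 over the 40 genes and -0.04 over all genes tested, and 35 of the 40 fold changes (87.5%) were below 0, against 59.1% of all genes. In bulk RNA, a smaller share of cells in a phase and fewer transcripts per cell cannot be told apart.

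The drop was present in each PA library. The median of the 40 genes, relative to the mean of the BSA libraries, was -0.09, -0.11 and -0.12 on the log2 scale in PA libraries 1, 2 and 3, where the median of all genes was -0.02, -0.04 and -0.04. For 24 of the 40 genes every PA library was below every BSA library, which was so for 22.3% of all genes, and for none of the 40 was every PA library above every BSA library (18.2% of all genes). By phase, 11 of 26 G1/S genes fell (42.3%, median log2 fold change -0.10) and 6 of 14 G2/M genes fell (42.9%, median -0.11), and the difference between the phases was not tested. The G1/S count was 3 without PA library 2, 6 without BSA library 2 and 7 without the variance trend. The G2/M count was 3 in each of these. It was also 3 without PA library 3, where 8 G1/S genes fell, and with median-of-ratios scaling, where 9 G1/S genes fell. The summed RPKM of the 26 G1/S genes was 1926, 1884 and 1904 in PA libraries, against 2015, 2029 and 2041 in BSA libraries. That of the 14 G2/M genes was 924, 917 and 910 in PA libraries, against 999, 1014 and 991 in BSA libraries. Neither sum overlapped between the groups, and neither did the summed RPKM of all genes, which was 446732, 449583 and 451485 in PA libraries, against 457409, 456239 and 456400 in BSA libraries.

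**Figure D1:**
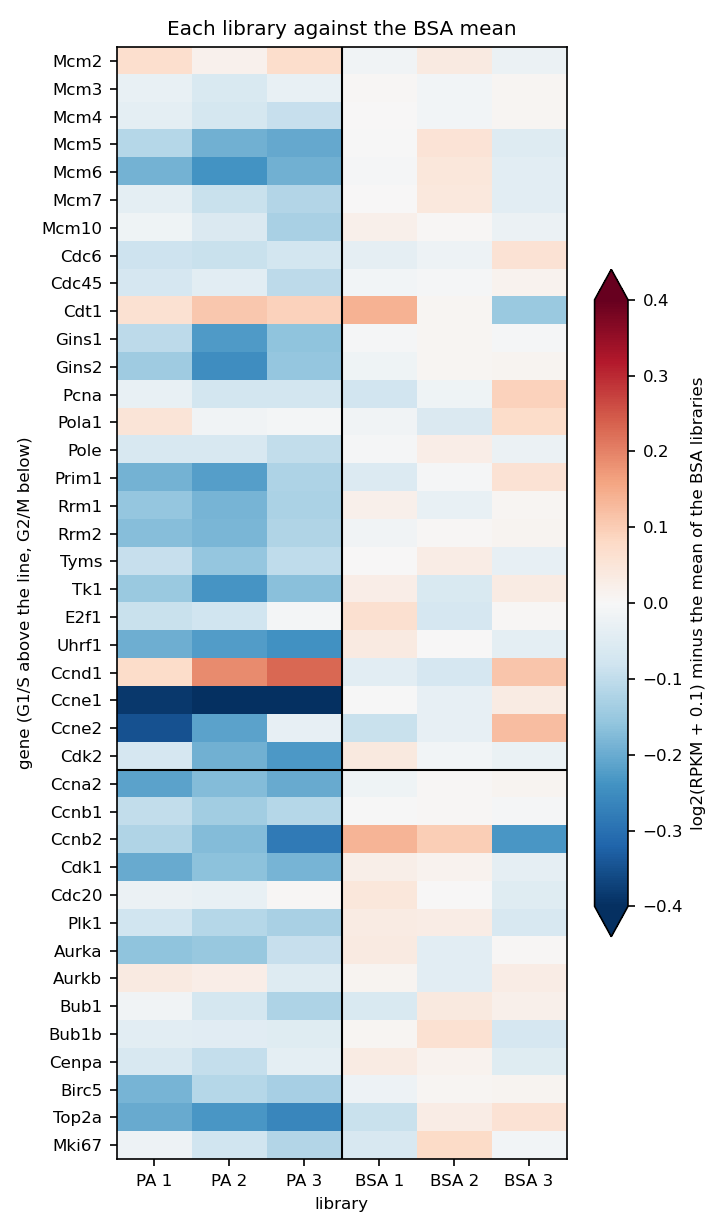
Each row is 1 of the 40 genes and each column 1 library, with the PA libraries left of the BSA libraries and G1/S genes above the line. Color gives log2(RPKM + 0.1) minus the mean of the BSA libraries; the PA columns are mostly blue (lower), with medians of -0.09, -0.11 and -0.12, and Ccne1 is the darkest row.

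The count of 17 depended on the libraries and on the fit. It was 6 without PA library 2, 11 without PA library 3 and 9 without BSA library 2, where 3.35%, 3.78% and 3.97% of all genes fell. It was 21 without BSA library 3, where 14.1% of all genes fell, and 10 without the variance trend of limma, where 6.43% of all genes fell. Median-of-ratios scaling left 12, with 6.80% of all genes lower, and moved the share of all calls that were higher in PA to 65.0%, against 54.0% in the test as reported. Of the 17 genes, 6 (Ccne1, Top2a, Uhrf1, Mcm6, Ccna2 and Cdk1) kept an adjusted p under 0.05 in each of the 17 alternatives run.

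**Figure D2:**
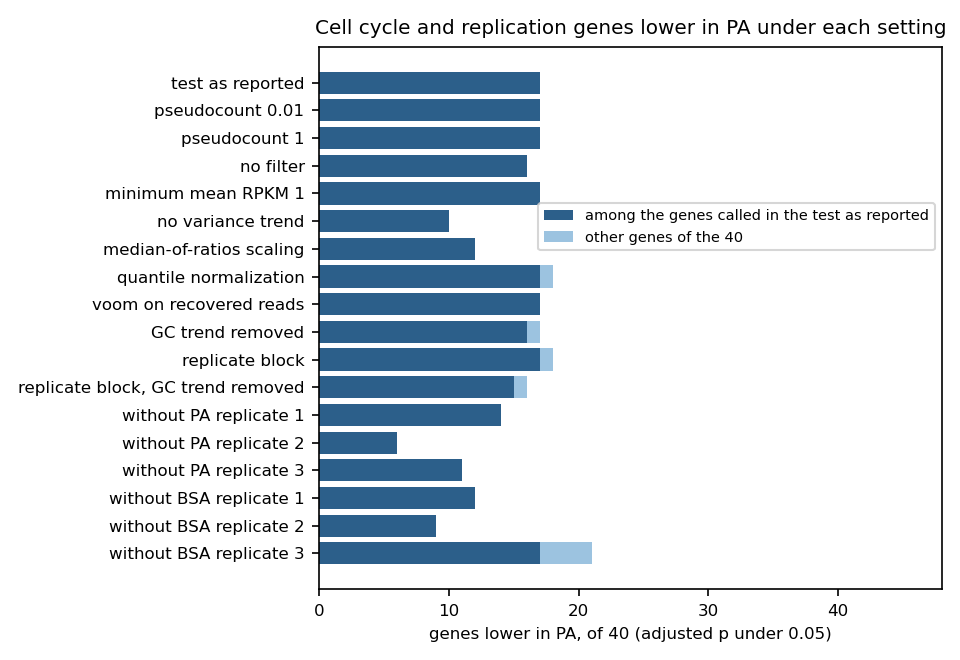
Bars give the number of the 40 genes that were lower in PA with an adjusted p under 0.05, in the test as reported and in each of the 17 alternatives, with genes outside the 17 in light blue. The lowest count is 6, when PA library 2 was left out, and the highest is 21, when BSA library 3 was left out.

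Among the helicase genes, 4 of 12 fell (33.3%, against 9.52% of all genes tested). Their median log2 fold change was -0.08, against -0.04 over all genes tested. Mcm6, a subunit of the MCM ring (ENSMUSG00000026355, chromosome 1, 128331590 to 128359664, minus strand, GENCODE vM21 on GRCm38), had 76.9, 74.2 and 76.7 RPKM in PA-treated PTECs, against 87.5, 90.4 and 85.3 RPKM in BSA-treated PTECs. The groups were well apart, with a log2 fold change of -0.21 ± 0.03 (SE, n = 3 libraries each, as for all values after ± here) and an adjusted p of 0.0050. Mcm5, another subunit of the ring, had 99.9, 94.8 and 93.8 RPKM in PA-treated PTECs, against 108, 113 and 104 RPKM in BSA-treated PTECs, and its log2 fold change was -0.17 ± 0.04 (adjusted p = 0.0213). Gins1, a GINS subunit, had 30.3, 27.9 and 29.2 RPKM in PA-treated PTECs, against 32.5, 32.8 and 32.6 RPKM in BSA-treated PTECs (log2 fold change -0.16 ± 0.04, adjusted p = 0.0247). In these 3 genes all PA libraries lay below all BSA libraries, as in 22.3% of all genes tested. Gins2, a further GINS subunit, was also lower, at 49.8, 46.3 and 49.3 RPKM in PA-treated PTECs, against 54.3, 55.3 and 55.4 RPKM in BSA-treated PTECs (log2 fold change -0.18 ± 0.04, adjusted p = 0.0133). Its exons share 67.3% of their bases with Gse1 on the opposite strand, and since no source used here gives the strand setting of the read counting, its value is uncertain.

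The subunits of the MCM ring, which work as 1 complex, did not all pass the test. Mcm7, with the highest level of the 6 ring subunits, had 229, 221 and 217 RPKM in PA-treated PTECs, against 236, 242 and 228 RPKM in BSA-treated PTECs, and the groups overlapped (log2 fold change -0.08 ± 0.03, adjusted p = 0.132). Mcm3 and Mcm4 were at -0.04 and -0.07 on the log2 scale, and Mcm2 was at 0.05 (adjusted p = 0.277). Whether the subunits differ from each other was not tested. Of the loading factors, Cdc6 was at -0.08 (adjusted p = 0.200) and Cdt1 at 0.09 (adjusted p = 0.389), and Cdt1 varied among the BSA libraries, with 67.8, 61.9 and 55.5 RPKM. Mcm10 and Cdc45, which help to start the fork, were both at -0.07 and did not pass the test.

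The promoters of Mcm5 and Mcm6 are shown because they carry the letters of the E2F site, the element through which replication genes are switched on. The windows run from 250 bases before to 50 bases after the gene start and are written 5′ to 3′ on the strand of the gene (RefSeq, GRCm38.p6), with capitals for the letters TTTGGCGC, TTTCCCGC, TTTGCCGC or TTTCGCGC on either strand. That of Mcm5 lies at chr8:75109259-75109558 on the plus strand and that of Mcm6 at chr1:128359656-128359955 on the minus strand.
Mcm5: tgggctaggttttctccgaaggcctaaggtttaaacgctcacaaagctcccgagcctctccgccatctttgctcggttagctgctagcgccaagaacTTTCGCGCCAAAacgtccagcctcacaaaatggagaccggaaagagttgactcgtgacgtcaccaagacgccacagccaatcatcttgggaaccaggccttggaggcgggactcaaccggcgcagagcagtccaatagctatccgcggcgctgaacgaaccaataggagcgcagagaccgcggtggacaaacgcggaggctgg
Mcm6: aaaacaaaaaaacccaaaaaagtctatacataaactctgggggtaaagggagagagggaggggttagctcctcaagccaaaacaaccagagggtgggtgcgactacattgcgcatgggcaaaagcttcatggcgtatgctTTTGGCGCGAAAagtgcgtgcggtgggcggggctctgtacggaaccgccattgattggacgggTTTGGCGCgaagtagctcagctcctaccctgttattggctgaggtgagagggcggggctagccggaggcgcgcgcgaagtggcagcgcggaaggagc
In Mcm5 the matches begin 153 and 149 bases before the start and overlap on opposite strands, and in Mcm6 they begin 110, 106 and 47 bases before it.

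Among the genes of the polymerases and their clamp, 1 of 4 fell (25%, against 9.52% of all genes tested). This was Prim1, the primase subunit that lays down RNA primers, with 59.7, 58.5 and 62.6 RPKM in PA-treated PTECs, against 65.6, 68.0 and 71.0 RPKM in BSA-treated PTECs (log2 fold change -0.18 ± 0.04, adjusted p = 0.0214). Pcna, the sliding clamp and the highest of the 40 genes, had 325, 315 and 315 RPKM in PA-treated PTECs, against 315, 328 and 354 RPKM in BSA-treated PTECs. These values overlapped, at a log2 fold change of -0.06 ± 0.04 (adjusted p = 0.371). Pole, the catalytic subunit of the leading-strand polymerase, was at -0.07 (adjusted p = 0.147) and Pola1, the catalytic subunit of the polymerase that extends the primer, at 0.01 (adjusted p = 0.903).

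Of the genes of nucleotide supply 3 of 4 fell (75%, against 9.52% of all genes tested), at a median log2 fold change of -0.16. In all 4 every PA library was below every BSA library, which was so for 22.3% of all genes. Ribonucleotide reductase makes deoxyribonucleotides from a large and a small subunit. Rrm1, the large subunit, had 67.1, 65.6 and 68.4 RPKM in PA-treated PTECs, against 75.8, 73.1 and 75.2 RPKM in BSA-treated PTECs (log2 fold change -0.16 ± 0.03, adjusted p = 0.0123). Rrm2, the small subunit, had 131, 129.7 and 135 RPKM in PA-treated PTECs, against 146, 148 and 148 RPKM in BSA-treated PTECs (log2 fold change -0.16 ± 0.03, adjusted p = 0.0082). Both subunits were lower by nearly the same amount. Tk1, the cytosolic thymidine kinase, had 82.8, 77.8 and 81.7 RPKM in PA-treated PTECs, against 93.5, 88.0 and 93.7 RPKM in BSA-treated PTECs (log2 fold change -0.18 ± 0.04, adjusted p = 0.0152). Tyms, the thymidylate synthase, did not pass the test, at -0.12 ± 0.04 (adjusted p = 0.0588).

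Of the 6 regulators of the G1/S transition, 3 fell (50%, against 9.52% of all genes tested). Among them was the gene with the lowest adjusted p of the 40. Ccne1, cyclin E1, the partner of CDK2 at S phase entry (ENSMUSG00000002068, chromosome 7, 38097984 to 38107534, minus strand), had 8.41, 8.11 and 8.05 RPKM in PA-treated PTECs, against 11.0, 10.8 and 11.3 RPKM in BSA-treated PTECs. The groups did not overlap, and the log2 fold change was -0.42 ± 0.05 (adjusted p = 7.2e-04), or 1.34-fold lower. With a pseudocount of 1 its log2 fold change no longer passed 0.4. The values rest on 283 to 454 reads in a library, the fewest of the 40 genes at the low end, and counting error alone gives an SE of 0.062 on the log2 scale. That is above the fitted SE of 0.046, so the p-value of Ccne1 may be too small. Cdk2 itself had 34.5, 31.6 and 30.8 RPKM in PA-treated PTECs, against 37.1, 35.9 and 35.5 RPKM in BSA-treated PTECs (log2 fold change -0.16 ± 0.05, adjusted p = 0.0492). Uhrf1, which guides the copying of DNA methylation after replication (ENSMUSG00000001228, chromosome 17, 56303321 to 56323486, plus strand), had 111, 109 and 107 RPKM in PA-treated PTECs, against 130.1, 127 and 123 RPKM in BSA-treated PTECs. It fell by 0.22 ± 0.03 on the log2 scale (adjusted p = 0.0026).

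The other G1 cyclins of the 40 genes did not pass the test. Ccnd1, cyclin D1, had 107, 116 and 119 RPKM in PA-treated PTECs, against 98.9, 97.3 and 110.1 RPKM in BSA-treated PTECs. PA library 1 lay under BSA library 3, and the log2 fold change was 0.16 ± 0.06 (adjusted p = 0.0847). It passed the test in some alternatives, such as without BSA library 3 (0.22, adjusted p = 0.0137) and with limma voom on reads recovered from the RPKM values (adjusted p = 0.0309), and over all alternatives its adjusted p lay between 0.0137 and 0.238. The exons of Ccnd1 share 23.4% of their bases with LTO1 on the opposite strand. Ccne2, the other cyclin E, had 4.72, 5.18 and 5.89 RPKM in PA-treated PTECs, against 5.66, 5.89 and 6.59 RPKM in BSA-treated PTECs, and the groups overlapped (log2 fold change -0.20 ± 0.09, adjusted p = 0.176). Its exons share 17.4% of their bases with Ints8 on the opposite strand. E2f1, an activating E2F factor, was at -0.06 (adjusted p = 0.445).

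**Figure D3:**
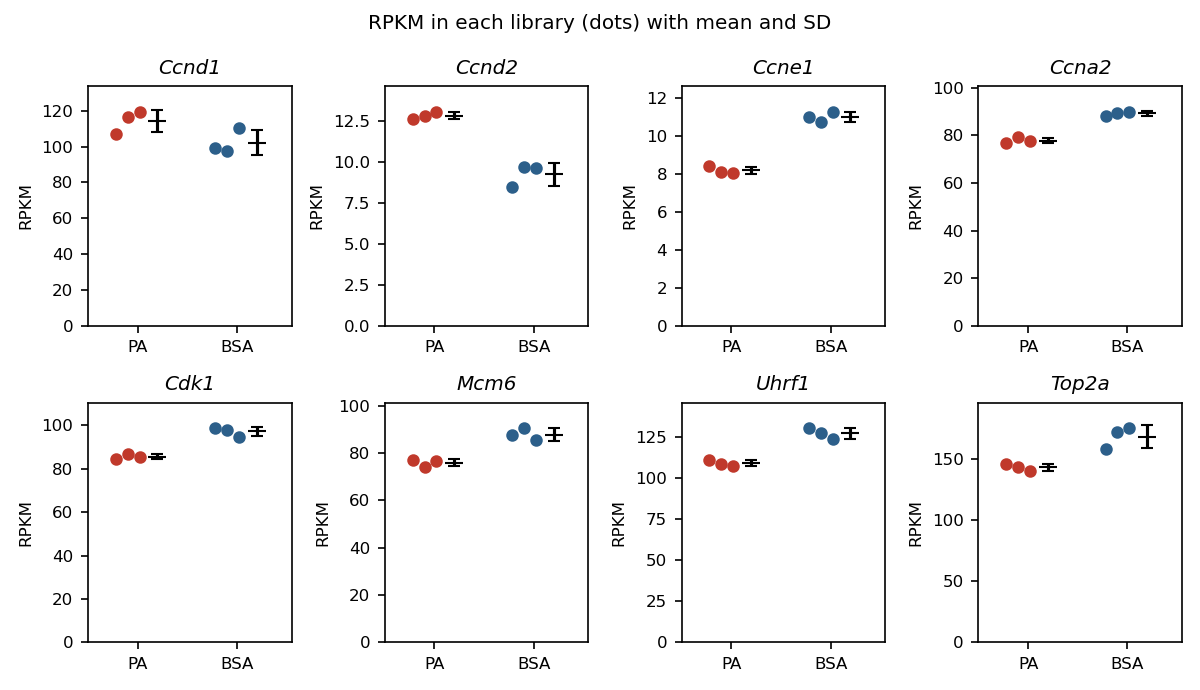
RPKM of 8 genes, 1 dot per library, with the mean and SD of the 3 libraries beside the dots, PA left of BSA, on axes that start at 0. Ccnd2 is higher in the PA libraries (12.6 to 13.1 RPKM) than in the BSA libraries (8.47 to 9.74 RPKM), Ccnd1 overlaps, and the other 6 genes are lower in every PA library than in every BSA library.

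Of the mitotic cyclins and CDK1, 3 of 4 fell (75%, against 9.52% of all genes tested), at a median log2 fold change of -0.19. Ccna2, cyclin A2, which acts in both S phase and G2, had 76.9, 79.1 and 77.5 RPKM in PA-treated PTECs, against 88.1, 89.6 and 89.9 RPKM in BSA-treated PTECs (log2 fold change -0.20 ± 0.03, adjusted p = 0.0029). Cdk1, the kinase that these cyclins activate, had 84.5, 86.6 and 85.3 RPKM in PA-treated PTECs, against 98.6, 98.0 and 94.8 RPKM in BSA-treated PTECs (log2 fold change -0.18 ± 0.03, adjusted p = 0.0051). Ccnb1, a B-type cyclin, had 82.2, 79.9 and 81.3 RPKM in PA-treated PTECs, against 88.0, 88.3 and 87.8 RPKM in BSA-treated PTECs (log2 fold change -0.12 ± 0.03, adjusted p = 0.0216). In all 3 genes every PA library lay below every BSA library, as in 22.3% of all genes tested. The exons of Ccna2 share 12.5% of their bases with Exosc9 on the opposite strand, so its value is uncertain to that extent. Ccnb2, the other B-type cyclin, had a like fold change but did not pass the test, with 40.4, 38.9 and 36.0 RPKM in PA-treated PTECs, against 48.2, 47.0 and 37.3 RPKM in BSA-treated PTECs (log2 fold change -0.19 ± 0.10, adjusted p = 0.191). BSA library 3 lay within the range of the PA libraries there. Ccnb1 and Ccnb2 each have 1 named pseudogene in the annotation, Pcna has 2 and Tyms has 1, and no source used here says how reads were shared with these copies, so their values are uncertain to that extent.

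Among the mitotic kinases and the checkpoint, 1 of 6 genes fell (16.7%, against 9.52% of all genes tested), at a median of -0.06. Aurka, a kinase of the spindle poles, had 52.9, 53.2 and 55.4 RPKM in PA-treated PTECs, against 60.6, 57.4 and 59.3 RPKM in BSA-treated PTECs (log2 fold change -0.13 ± 0.04, adjusted p = 0.0329). Cdc20, the activator of the anaphase-promoting complex, had 104, 104 and 107 RPKM in PA-treated PTECs, against 109.5, 106 and 103 RPKM in BSA-treated PTECs. These overlapped, and its log2 fold change of -0.02 ± 0.03 (adjusted p = 0.763) was slightly above 0 under median-of-ratios scaling. Plk1, a kinase of mitotic entry, was lower in every PA library but did not pass the test, at -0.11 (adjusted p = 0.0758). Aurkb, the kinase of the chromosomal passenger complex, was at 0.00, and Bub1 and Bub1b of the spindle checkpoint were at -0.07 and -0.05.

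Of the centromere and chromosome proteins, 2 of 4 fell (50%, against 9.52% of all genes tested). Top2a, the topoisomerase that untangles sister chromosomes (ENSMUSG00000020914, chromosome 11, 98992943 to 99024189, minus strand), had 146, 143 and 140.3 RPKM in PA-treated PTECs, against 158, 172 and 175 RPKM in BSA-treated PTECs (log2 fold change -0.23 ± 0.04, adjusted p = 0.0088). Birc5, which encodes survivin, a subunit of the chromosomal passenger complex, had 36.8, 38.7 and 38.2 RPKM in PA-treated PTECs, against 41.2, 42.1 and 42.2 RPKM in BSA-treated PTECs (log2 fold change -0.14 ± 0.03, adjusted p = 0.0220). In both genes every PA library lay below every BSA library, as in 22.3% of all genes tested. Mki67, whose protein Ki-67 is a common stain for cycling cells, had overlapping groups and did not pass the test, at -0.07 ± 0.05 (adjusted p = 0.291). The centromeric histone gene Cenpa did not pass the test either, at -0.07 ± 0.03 (adjusted p = 0.216).

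**Figure D4:**
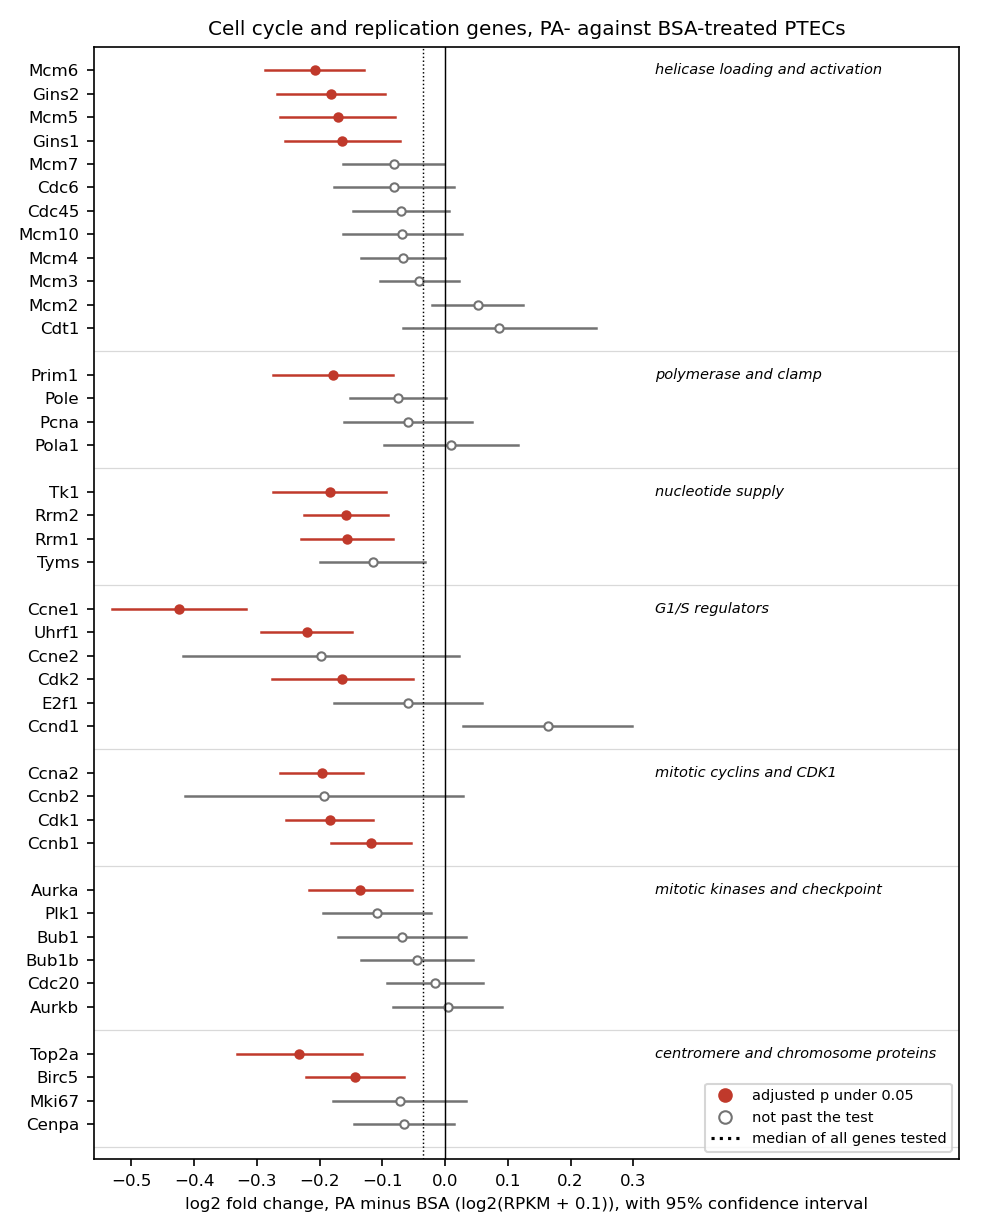
Points give the log2 fold change (PA minus BSA) of each of the 40 genes with its 95% confidence interval, grouped by role, with filled red points for an adjusted p under 0.05 and a dotted line at the median of all genes tested (-0.04). The 17 red points all lie left of 0, between -0.42 and -0.12, and 5 of the open points lie right of 0.

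The promoters of Cdk1 and Top2a are shown because they carry the letters of the CHR element of late cell cycle genes, here TTTGAA or TTCGAA on either strand. Capitals mark these letters, and in Cdk1 also those of the E2F site. The Cdk1 window lies at chr10:69352863-69353162 and that of Top2a at chr11:99024140-99024439, both on the minus strand and written as above.
Cdk1: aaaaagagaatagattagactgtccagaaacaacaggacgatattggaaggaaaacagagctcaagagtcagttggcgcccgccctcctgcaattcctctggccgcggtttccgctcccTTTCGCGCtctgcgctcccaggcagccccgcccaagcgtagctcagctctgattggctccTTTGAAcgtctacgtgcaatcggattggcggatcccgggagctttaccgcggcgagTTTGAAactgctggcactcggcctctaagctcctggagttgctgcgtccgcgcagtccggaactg
Top2a: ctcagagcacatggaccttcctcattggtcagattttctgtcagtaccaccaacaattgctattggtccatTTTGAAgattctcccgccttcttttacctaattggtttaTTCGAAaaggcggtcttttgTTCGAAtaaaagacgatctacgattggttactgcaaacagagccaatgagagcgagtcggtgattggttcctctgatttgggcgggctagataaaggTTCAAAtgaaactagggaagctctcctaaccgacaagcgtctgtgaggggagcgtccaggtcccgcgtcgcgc
In Cdk1 the CHR letters begin 71 and 15 bases before the start and the E2F letters 131 bases before it. In Top2a the CHR letters begin 179, 140, 120 and 23 bases before it.

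Promoter windows were found for 32 of the 40 genes, not for Gins1, Gins2, Mcm4, Pole, Ccnd1, Ccne2, Ccna2 and Aurkb. The E2F letters were in 9 of 20 G1/S genes (45.0%) and in 1 of 12 G2/M genes (8.33%), against 2.26% of 32851 windows. The CHR letters were in 3 of 20 G1/S genes and in 10 of 12 G2/M genes (83.3%), against 19.2% of windows. A gene was counted if any of its windows had the letters, and Mcm7 and Uhrf1 have more than 1 window. The 2.26% and 19.2% are shares of single windows, from 27025 genes, so the measures are not quite alike. Among the genes that fell, the E2F letters were in 5 of 14 and the CHR letters in 3 of 14, and among those that did not pass the test they were in 5 of 18 and 10 of 18. A match of letters is not evidence of a bound site.

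Beyond the 40 genes, 149 further genes of the cell cycle were listed and 148 of them tested. Of these, 33 fell (22.3%) and 3 rose (2.03%), against 9.52% and 11.2% of all genes tested, at a median log2 fold change of -0.08. The next counts have the share of all genes that fell in the same fit in brackets. The 33 became 17 without PA library 1 (6.76%) and 8 without PA library 2 (3.35%) or PA library 3 (3.78%). It was 13 without BSA library 1 (5.39%) and 9 without BSA library 2 (3.97%). It was 15 without the variance trend (6.43%) or with median-of-ratios scaling (6.80%), 21 without a filter (3.86%), and 45 without BSA library 3 (14.1%). Of 28 genes of the replication fork and of chromatin assembly, 9 fell and none rose. Rfc3, a subunit of the clamp loader, had 53.0, 54.8 and 54.9 RPKM in PA-treated PTECs, against 68.3, 66.2 and 63.2 RPKM in BSA-treated PTECs (log2 fold change -0.28 ± 0.04, adjusted p = 0.0021). Clspn, a fork checkpoint adaptor, and Chtf18, of an alternative clamp loader, fell by 0.23 and 0.22 on the log2 scale. Of 16 genes of origin recognition and firing, 5 fell, among them Wdhd1, Cdc7 and Orc5 at -0.24, -0.22 and -0.20, and 1 rose. CDC7 is the kinase that fires origins, and the gene that rose encodes its activator: Dbf4 had 90.2, 88.7 and 94.0 RPKM in PA-treated PTECs, against 80.0, 79.2 and 80.1 RPKM in BSA-treated PTECs (log2 fold change 0.19 ± 0.03, adjusted p = 0.0060). Of 8 further genes of nucleotide supply, 3 fell, Umps, Impdh2 and Dck, by 0.19, 0.15 and 0.14 on the log2 scale.

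Of 35 genes of the spindle, the kinetochore and cytokinesis, 11 fell and none rose. The lowest were Spc24 and Spc25, which encode partners in the NDC80 complex that ties kinetochores to microtubules. Spc24 had 16.8, 16.9 and 17.6 RPKM in PA-treated PTECs, against 20.7, 21.7 and 21.8 RPKM in BSA-treated PTECs (log2 fold change -0.32 ± 0.04, adjusted p = 0.0014). Spc25 fell by 0.29 (adjusted p = 0.0096) and Nusap1, a spindle protein gene, by 0.24 (adjusted p = 0.0054). Of 14 genes of the anaphase-promoting complex, Anapc10 and Anapc4 fell (14.3%, against 9.52% of all genes tested), by 0.22 and 0.12. Of 8 condensin genes none passed the test, with Ncapd2, the highest of them, at -0.14 (adjusted p = 0.0567). Of 14 genes of mitotic entry, 1 fell and 1 rose (7.14% each), under the shares of all genes tested (9.52% and 11.2%). Cdc25b, a phosphatase that activates CDK1, fell by 0.21. Lin54, of the complexes that bind the CHR, rose by 0.27 ± 0.06 (adjusted p = 0.0176).

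Among 19 genes of E2F, RB and D cyclin control, 2 fell (10.5%) and 1 rose (5.26%). These shares were near or under those of all genes tested (9.52% and 11.2%). E2f7, a repressing E2F factor, fell by 0.21 (adjusted p = 0.0084), and Skp2, a subunit of the ubiquitin ligase for the inhibitor p27, by 0.14 (adjusted p = 0.0378). Ccnd2, cyclin D2, had 12.6, 12.8 and 13.1 RPKM in PA-treated PTECs, against 8.47, 9.74 and 9.62 RPKM in BSA-treated PTECs (log2 fold change 0.47 ± 0.06, adjusted p = 0.0018). This was the only one of the 148 genes past both an adjusted p under 0.05 and a log2 fold change over 0.4, a rule that 4.22% of all genes passed in the upward direction. Its partners and its relative did not pass the test, with Ccnd3 at 0.01, Cdk4 at 0.07 and Cdk6 at -0.05. None of 6 CDK inhibitor genes passed the test as reported. Cdkn1a, which encodes the inhibitor p21, had 19.0, 18.7 and 20.1 RPKM in PA-treated PTECs, against 18.2, 15.5 and 16.6 RPKM in BSA-treated PTECs, so that every PA library was higher (log2 fold change 0.20 ± 0.06, adjusted p = 0.0576). It passed the test in some alternatives, such as median-of-ratios scaling (adjusted p = 0.0411), limma voom (adjusted p = 0.0346), the GC trend removed (adjusted p = 0.0387) and without BSA library 1 (adjusted p = 0.0205). Among the alternatives where Cdkn1a did not pass were no filter (adjusted p = 0.0971) and a pseudocount of 1 (adjusted p = 0.0569). The other inhibitor genes were Cdkn1b at 0.17, Cdkn2a at 0.01, Cdkn2b at -0.08, Cdkn2c at -0.29 and Cdkn2d at -0.19. Cdkn2c passed the test without BSA library 3 (-0.43, adjusted p = 0.0033) and with the GC trend removed (-0.28, adjusted p = 0.0413).

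**Figure D5:**
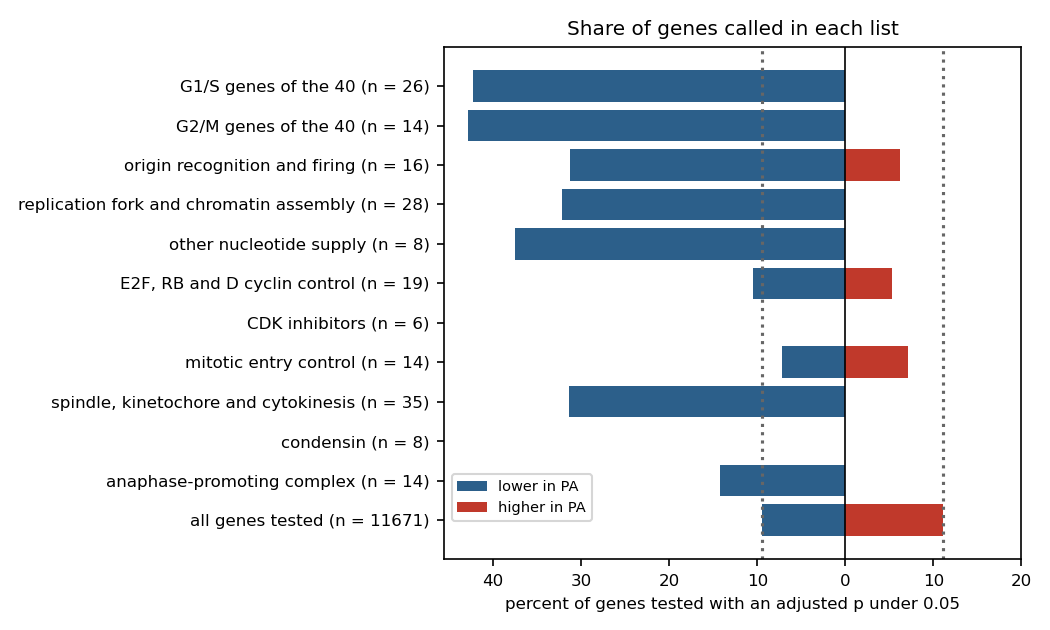
Bars give the percent of genes in each list with an adjusted p under 0.05, lower in PA to the left and higher in PA to the right, with dotted lines at the shares of all genes tested (9.52% lower, 11.2% higher). The G1/S and G2/M bars reach 42.3% and 42.9% on the lower side and have no higher part, whereas CDK inhibitors and condensin have no bar.

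Library sizes, inferred from the RPKM values, were 17850330 to 20189052 reads in PA-treated and 17679817 to 21568228 reads in BSA-treated PTECs. For the 40 genes, counting error gave an SE of 0.009 to 0.063 on the log2 scale (median 0.023), against a fitted SE of 0.027 to 0.096 (median 0.037). In Ccne1, Gins1 and Gins2 the counting SE (0.062, 0.045 and 0.052) was above the fitted SE (0.046, 0.040 and 0.037). The same held for some further genes, such as Spc24 (0.053 against 0.040). The p-values of such genes may be too small. Of 8 epithelial and proximal tubule markers, Krt8, Krt18, Pax8, Lrp2 and Aqp1 were above 1 RPKM, whereas Cdh1 and Slc34a1 were near 0, at means of 0.045 and 0.0031 RPKM. Their sum was 630 to 656 RPKM in PA libraries and 760 to 801 RPKM in BSA libraries, and Krt8 and Krt18 fell by 0.26 and 0.32 on the log2 scale. Whether this has a part in the change of the cell cycle genes was not tested. Of the 5 fibroblast, 5 endothelial and 5 immune markers, only Col1a2 and Cd68 were above 1 RPKM, and the summed levels stayed at or under 1.60, 0.182 and 3.26 RPKM in PA libraries and 1.93, 0.103 and 3.53 RPKM in BSA libraries.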

How the data were processed

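RNA of immortalized wild-type mouse PTECs was compared after 6 hours with PA-bound BSA or BSA, with 3 libraries each. The authors made base calls with bcl2fastq and mapped the reads to GRCm38 with TopHat2 2.1.1, as the submitters' processing notes and the methods give it. The sources used here do not say how reads were counted, on which annotation or with which strand setting. The authors deposited RPKM values per gene and library. Fold changes and p-values of the authors' own edgeR comparison, also deposited, were not used. Columns were matched to samples by the initial of the treatment and the replicate number.

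The values were tested with limma 3.58.1 (R 4.3.3; lmFit, eBayes with a variance trend) on log2(RPKM + 0.1) in the 11671 genes with a mean of at least 0.5 RPKM. Fold changes on this scale are understated for low genes. All p-values were adjusted over these genes by the Benjamini-Hochberg method. The authors' methods name edgeR, which needs counts, so a test for RPKM values was used. RPKM values were whole multiples of 1 read in 100% of 19127 genes, within a tolerance of 1e-06. The reads recovered in this way make up 99.4% of each library size, which was itself inferred from the RPKM values. These reads served limma voom, an alternative, and the counting errors, which cover counting error only. No source says that libraries came from separate cultures, so p-values measure the spread between these libraries, which may be technical. The procedure was tested on simulated data.

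Per library values are given for the 16 genes of the 40 with the largest absolute fold change past the test and for the 2 highest genes of each phase. Of each further list, up to 3 genes past the test were named, or the highest 1 where none passed, and all CDK inhibitor genes at or above 0.5 RPKM. Other genes were named after their values were seen. The 40 genes, the further lists and the motif letters were chosen with earlier results of these data known, so their counts are descriptions. Exon overlaps and positions are from GENCODE vM21 and promoters from RefSeq (GRCm38.p6). Alternatives changed the pseudocount, the filter, the variance trend, the scaling, the test, the GC trend, the replicate block and the libraries used.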

Additional observations from a re-analysis of the deposited data

How the results depend on the processing

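Of the 17 genes that fell, 10 were called in all 11 alternatives that kept all libraries, and 6 in all 17. Without the variance trend, 10 genes fell (7 G1/S and 3 G2/M) and 15 of the further genes fell, where 6.43% of all genes fell. With median-of-ratios scaling, 12 of the 40 genes fell, 3 of them G2/M genes. The median log2 fold change of the 40 genes was -0.089, and of the further genes 15 fell and 6 rose. In that fit 6.80% of all genes fell and 1476 of 11671 rose. The further genes that rose numbered 5 with quantile normalization, 5 with limma voom and 7 with the GC trend removed, where the median of the 40 genes was -0.093. Of all 11671 genes, 1347, 1487 and 1588 rose in these fits. Without a filter, 21 further genes fell, where 3.86% of all genes fell. With a pseudocount of 1, 0 of the 40 genes passed both thresholds. Voom called 1 of the 40 genes higher, Ccnd1. The cause of these moves was not tested.

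With 1 library left out at a time, the genes that fell numbered 6 to 21 of the 40 (3 to 13 G1/S, 3 to 8 G2/M) and 8 to 45 of the further genes, and 0 to 1 of the 40 rose. Of all genes, 3.35% to 14.1% fell and 819 to 1364 of 11671 rose. These fits use fewer libraries. Cdc20 was above 0 on the log2 scale with median-of-ratios scaling (0.0075), with the GC trend removed (1.1e-04, also with the block) and without BSA replicate 1, with a range of -0.039 to 0.0067 when 1 library was left out. Cdkn2a was below 0 without PA replicate 1 or BSA replicate 3, with a range of -0.079 to 0.071. None of these passed the test.

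With the replicate number as a block, 18 of the 40 genes fell and 1 rose (Ccnd1, adjusted p = 0.0309), and Cdkn1a also rose (adjusted p = 0.0436). In that fit 10.6% of all genes fell and 1333 of 11671 rose. With the block and the GC trend removed, 16 of the 40 fell and 1 rose, the median was -0.093 and 8 further genes rose. Of all genes, 9.62% then fell and 1650 of 11671 rose. Deviations of same-numbered libraries correlated at 0.035, -0.036 and 0.094, against -0.103 to 0.074 for the other pairs. With 3 libraries in each group, these values cannot settle whether the numbers pair the libraries. Deviations from the group mean correlated with the GC content of genes at 0.039, -0.018 and -0.022 in PA libraries and at 0.153, 0.069 and -0.197 in BSA libraries, across 11259 genes, which are not independent replicates. In 29 of the 40 genes counting error was more than 50% of the fitted SE. How far depth limits the precision of these fold changes was not tested.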
